A study of Mus musculus with 4 samples.

Results

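The integrin and laminin genes on the array were followed in cultured mouse ureters that lacked or kept *Pparg* and were treated with the hedgehog pathway agonist purmorphamine or with its solvent. Genes were chosen by symbol alone, as integrin alpha and beta subunits with a number (and *Itgav*, but not *Itgb2*) and laminin alpha, beta and gamma chains. This gave 31 genes, 20 integrin subunits and 11 laminin chains, out of 29924 genes on the array. Ureters were explanted from newborn NMRI mice at P0 and cultured on membranes for 8 d. Control ureters were labelled Pparg (fl/?) and mutant ureters Pax2-cre/+; Pparg (fl/fl), named *Pparg-cKO*. By the methods of the study the controls were littermates without cre, so the mutants carried a cre driver that the controls lacked. Each genotype was cultured with DMSO diluted 1:1000 or with 2 µM purmorphamine, an agonist of the membrane protein SMO. RNA came from sex-sorted pools, and each of the 4 groups held 1 male and 1 female pool, 8 pools in all. The 2 pools of a genotype and sex shared a two-colour array, so 4 arrays were hybridised, and the dyes were exchanged between male (replicate 1) and female (replicate 2) arrays. The cre driver acts in epithelial cells of the ureter and kidney ducts, whereas whole ureters with mesenchyme, vessels and blood cells were profiled. How many ureters a pool held is not given in the sources used here, and p-values measure the spread between these pools only.

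Laminins are trimers of an alpha, a beta and a gamma chain that polymerise into the sheet of the basement membrane under epithelia and around smooth muscle cells and vessels. Integrins are dimers of an alpha and a beta subunit that span the plasma membrane, bind laminins, collagens, fibronectin and other matrix proteins outside, and recruit talins, kindlins and other adaptors inside. In stratified epithelia such as the urothelium, the basal cells are anchored through hemidesmosomes, in which the integrin of ITGA6 and ITGB4 binds a laminin that contains LAMA3 and LAMB3. In muscle and mesenchyme, laminins with LAMA2 or LAMA4 and integrins with ITGB1 prevail.

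The share of spots brighter than their background ran from 66.3% to 70.5% over the pools, with 0 saturated spots. All 31 genes were well above background in all 8 pools with the probe used for them, and all were tested. The *Pparg* probe read 14.79 and 15.31 (male and female, normalized log2 intensity) in control pools with DMSO and 15.54 in each *Pparg-cKO* pool with DMSO. It does not check the deletion, because the recombined allele still makes a shortened transcript. *Shh*, a ligand made by the epithelium, fell in *Pparg-cKO* with DMSO (log2 fold change -2.90, SE 0.23, adjusted p = 0.00259), and all mutant pools were below all control pools. *Ptch1*, a transcriptional target of hedgehog signalling, was higher with purmorphamine by 1.00 in control (SE 0.12, adjusted p = 0.0456) and by 1.62 in *Pparg-cKO* (SE 0.12, adjusted p = 0.0137). The urothelial markers *Krt5* and *Cdh1*, the smooth muscle markers *Acta2* and *Myh11*, the fibroblast markers *Pdgfra* and *Col1a1*, the endothelial markers *Pecam1* and *Cdh5*, the leukocyte markers *Ptprc* and *Csf1r*, the platelet marker *Pf4* and the glial marker *Sox10* were all tested, while the platelet marker *Gp9* was too dim to be tested.

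The sequences below locate what was read for the genes that carry the results. The 60-base probes of *Itgb6*, which was called between genotypes, are shown because the gene rests on 2 independent stretches of its transcript. The brighter lies on chromosome 2 at chr2:60492788-60492847 and the other at chr2:60438632-60443247 (mm9, minus strand), a stretch of 4616 bases of genome for 60 bases of probe, which therefore crosses an intron.

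Itgb6, brighter probe: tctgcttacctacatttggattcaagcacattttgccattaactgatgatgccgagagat
Itgb6, other probe: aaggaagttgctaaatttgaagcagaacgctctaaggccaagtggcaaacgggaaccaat

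*Itga4* and *Itga11* were called higher with the hedgehog agonist in *Pparg-cKO*, while *Itgb6* passed in neither genotype with either probe. The 250 bases before the start of each of these genes are shown as well (RefSeq, GRCm38.p6, each outside the annotated gene). They lie at chr2:79255176-79255425 (plus strand), chr9:62677605-62677854 (plus strand) and chr2:60722604-60722853 (minus strand). Capitals mark CCACCCA, the core of the sequence bound by GLI proteins, the transcription factors of the hedgehog pathway, searched on either strand.

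Itga4: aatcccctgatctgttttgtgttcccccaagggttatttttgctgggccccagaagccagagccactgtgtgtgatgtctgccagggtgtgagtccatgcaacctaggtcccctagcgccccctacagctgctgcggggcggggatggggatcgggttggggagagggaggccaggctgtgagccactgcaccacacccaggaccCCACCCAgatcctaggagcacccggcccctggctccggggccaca
Itga11: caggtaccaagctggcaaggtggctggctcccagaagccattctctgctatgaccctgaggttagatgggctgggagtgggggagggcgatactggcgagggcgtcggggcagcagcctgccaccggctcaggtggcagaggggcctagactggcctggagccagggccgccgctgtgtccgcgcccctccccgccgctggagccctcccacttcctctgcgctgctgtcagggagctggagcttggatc
Itgb6: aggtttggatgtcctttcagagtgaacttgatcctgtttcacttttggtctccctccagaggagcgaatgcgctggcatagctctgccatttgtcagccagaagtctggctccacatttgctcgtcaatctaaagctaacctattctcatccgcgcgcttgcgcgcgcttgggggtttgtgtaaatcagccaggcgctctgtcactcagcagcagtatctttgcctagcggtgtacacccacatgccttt

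CCACCCA began 45 bases before the start of *Itga4* and was not in the windows printed for *Itga11* and *Itgb6*. Of the 31 genes, 21 had a promoter in the RefSeq table (24 windows of 300 bases). CCACCCA was in 2 of these 24 windows, those of *Itga2* and *Itga4*, against 9.3% of all 32851 windows. The longer GLI sequence GACCACCCA, which holds the shorter run, was in 0 of the 24 windows and in 0.253% of all windows.

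To find out how the pathway agonist altered these genes, purmorphamine was compared with DMSO within each array. With purmorphamine, *Pparg-cKO* ureters had higher signals for the laminin chains *Lama2* and *Lamc3* and the integrin subunits *Itga4* and *Itga11*, and a lower signal for *Lama1*. The changes were 2.14-fold to 2.7-fold. By the limma fit, with Benjamini-Hochberg adjustment over 27064 probes and a threshold of 0.05, 4 of 31 genes rose and 1 fell in *Pparg-cKO*, against 4.69% of all 20229 genes tested that changed in either direction. In control ureters 0 of 31 passed (1.35% of all genes), while 13 of 31 had an unadjusted p under 0.05, as had 19.6% of all genes. By the rule in the methods of the study, an intensity above 100 and a change of at least 1.5-fold alike in both pairs of pools, 4 genes passed in control (6.45% of all genes bright enough), *Lama2*, *Itga4* and *Itga11* higher and *Lama1* lower. These 4 also passed it in *Pparg-cKO*, with *Lamc3* and *Itga8* higher in addition (8.67% of all genes). Without the female *Pparg-cKO* array (replicate 2) 0 genes passed the limma fit in *Pparg-cKO*, with adjusted p from 0.104 for *Lama2* to 0.296 for *Lamc3* and every sign kept. With the replicate number, which marks sex and dye orientation, as a block, *Lama1* and *Lama2* passed, and adjusted p was 0.0506 for *Itga4*, 0.0536 for *Itga11* and 0.0693 for *Lamc3*.

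The laminin chains moved in different directions. *Lama2*, the alpha chain of the main muscle laminin, read 12.72 and 13.21 (male and female pool) in control with DMSO, 13.87 and 13.90 in control with purmorphamine, 12.79 and 12.82 in *Pparg-cKO* with DMSO, and 14.14 and 14.34 in *Pparg-cKO* with purmorphamine. Every purmorphamine pool lay above every DMSO pool. The log2 fold change was 0.92 in control (SE 0.15, adjusted p = 0.0705) and 1.43 in *Pparg-cKO* (SE 0.15, adjusted p = 0.0191, limma). A second probe, 66 bases away on the genome, gave 0.88 in control (adjusted p = 0.0431) and 1.36 in *Pparg-cKO* (adjusted p = 0.0137), so *Lama2* in control passed with that probe and not with the brighter.

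*Lamc3*, a gamma chain found in some laminins of vessels, nerve and epithelia, read 10.11 and 10.83 in control with DMSO, 11.21 and 11.30 with purmorphamine, 9.69 and 9.38 in *Pparg-cKO* with DMSO, and 10.67 and 11.02 with purmorphamine. Within a genotype the treated pools did not overlap the DMSO pools, and the DMSO pools of *Pparg-cKO* were the lowest of all. The rise was 1.31 in *Pparg-cKO* (SE 0.23, adjusted p = 0.0487) and the control value was 0.78 (SE 0.23, adjusted p = 0.174).

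*Lama1*, the alpha chain of the first laminin laid down in embryonic basement membranes, went the other way. It read 11.66 and 11.32 in control with DMSO, 11.02 and 10.53 with purmorphamine, 11.50 and 11.37 in *Pparg-cKO* with DMSO, and 10.59 and 10.09 with purmorphamine. All 4 treated pools were below all 4 DMSO pools. It fell in *Pparg-cKO* (log2 fold change -1.10, SE 0.13, adjusted p = 0.0253), beside -0.71 in control (SE 0.13, adjusted p = 0.0895).

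The remaining chains of this group did not pass. *Lamc1*, the gamma chain of most laminins, had log2 fold changes of 0.45 in control and 0.50 in *Pparg-cKO* (adjusted p = 0.126 and 0.073). *Lama4*, a chain of vessel and mesenchymal laminins, had 0.25 and 0.38. *Lama5*, *Lamb1* and *Lamb2* lay between -0.16 and 0.32, and for each of them the male and female control arrays had opposite signs. Over the 8 laminin chains outside the hemidesmosomal trimer the median was 0.26 in control and 0.35 in *Pparg-cKO*, with medians of 0.02 and -0.00 over all genes tested.

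Among the integrin alpha subunits, *Itga4*, which pairs with ITGB1 or ITGB7 to bind fibronectin and VCAM1, read 12.43 and 13.18 in control with DMSO, 13.42 and 13.82 with purmorphamine, 12.76 and 12.68 in *Pparg-cKO* with DMSO, and 13.66 and 14.08 with purmorphamine. The treated pools were above the DMSO pools in both genotypes. The rise was 1.15 in *Pparg-cKO* (SE 0.17, adjusted p = 0.0366) and the control value was 0.82 (SE 0.17, adjusted p = 0.106). Its other probe was well above background in only 5 of 8 pools and gave 0.29 in *Pparg-cKO* (adjusted p = 0.191).

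*Itga11*, a collagen receptor subunit of mesenchymal cells, read 10.42 and 10.68 in control with DMSO, 11.57 and 11.68 with purmorphamine, 11.00 and 10.60 in *Pparg-cKO* with DMSO, and 11.77 and 12.04 with purmorphamine. Again no treated pool overlapped a DMSO pool. Its values were nearly equal in the genotypes, 1.08 in control (SE 0.18, adjusted p = 0.0796) and 1.10 in *Pparg-cKO* (SE 0.18, adjusted p = 0.0456), and only the latter passed. Without either control array the adjusted p of the latter was 0.0557.

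*Itga10*, another collagen receptor subunit, had the widest spread between pools. It read 10.03 and 11.43 in control with DMSO, 11.93 and 11.51 with purmorphamine, 11.58 and 10.42 in *Pparg-cKO* with DMSO, and 11.79 and 11.64 with purmorphamine. The male control pool and the female *Pparg-cKO* pool with DMSO were low and the other 6 pools lay close together. Neither treatment value passed (0.99 in control, SE 0.47, and 0.72 in *Pparg-cKO*, SE 0.47). The 2 probes of this gene share 54 of 60 bases and gave the same pattern, so they are not separate evidence.

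Across all members, 14 of 31 were higher with purmorphamine on all 4 arrays, against 21.5% of all genes, and 7 were lower on all 4, against 20.4%. Higher on all 4 were *Lama2*, *Lama4*, *Lamc1*, *Lamc3*, *Itga1*, *Itga4*, *Itga6*, *Itga8*, *Itga9*, *Itga10*, *Itga11*, *Itgb1*, *Itgb3* and *Itgb5*. This depends on the probe, since the other probe of *Itga6* was below 0 on all 4 arrays, and those of *Itga1*, *Itgb1* and *Itgb3* were below 0 on the female control array (-0.38, -0.12 and -0.01). Lower on all 4 were *Lama1*, *Itga2*, *Itga2b*, *Itga3*, *Itga5*, *Itgb4* and *Itgb7*. *Itga8*, which pairs with ITGB1 as the receptor for nephronectin, had log2 fold changes of 0.72 and 0.88 in control and *Pparg-cKO* (adjusted p = 0.123 and 0.0569), and *Itga9*, a receptor subunit for tenascin-C and VCAM1, had 0.50 and 0.47 (adjusted p = 0.103 and 0.0742). *Itga2*, a collagen receptor subunit of epithelia and platelets, had -0.52 and -0.25, and *Itga3*, a laminin receptor subunit of epithelia, had -0.49 and -0.29, none of which passed.

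**Figure D1:**
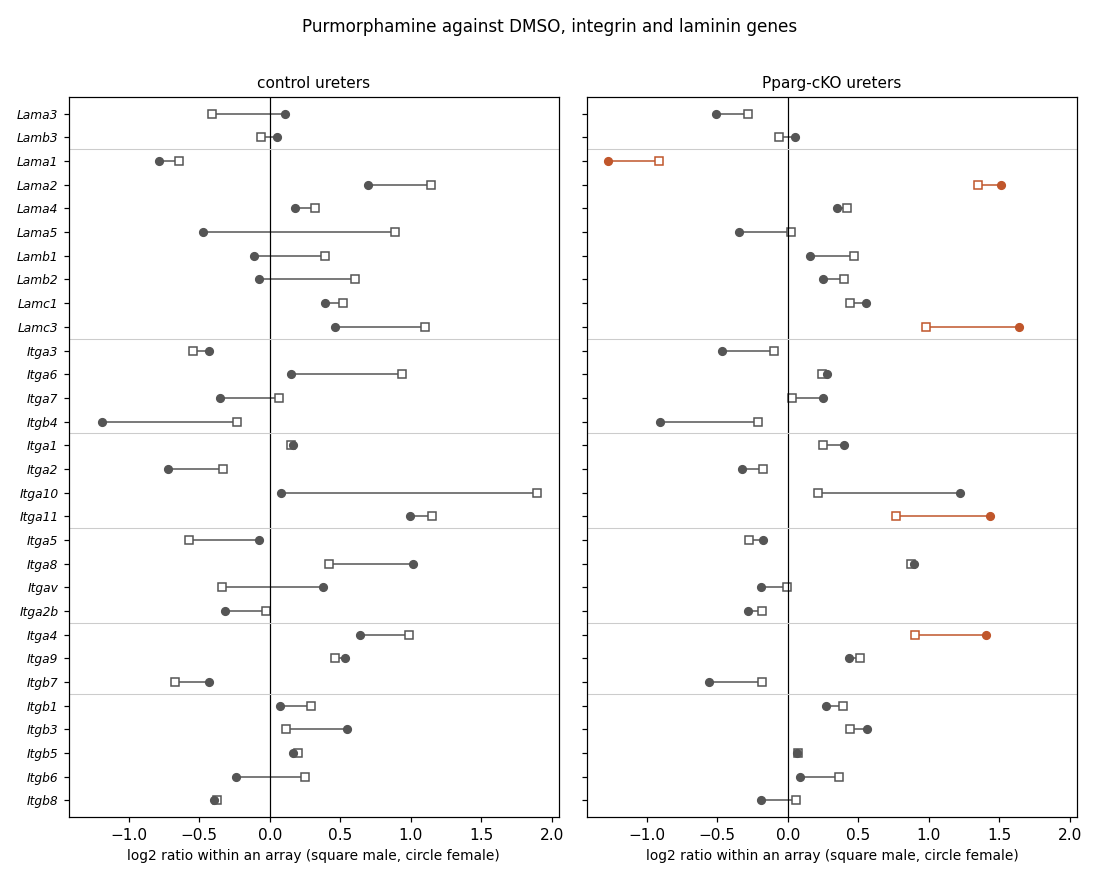
Log2 ratio of purmorphamine over DMSO within an array for 30 integrin and laminin genes, in control (left) and *Pparg-cKO* (right) ureters, with an open square for the male array, a filled circle for the female array and a line joining them. Orange marks the 5 genes that passed in *Pparg-cKO*, *Lama2*, *Lamc3*, *Itga4* and *Itga11* to the right of 0 and *Lama1* to the left, and grey lines separate the role groups.

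Markers of whole cell types moved in the same comparison. All 6 smooth muscle genes were higher with purmorphamine on all arrays, with medians of 0.72 in control and 0.85 in *Pparg-cKO*, though 0 passed the adjusted threshold and 6 of 6 had an unadjusted p under 0.05 in either genotype. Their summed intensity was 256000 to 349000 in control and 277000 to 318000 in *Pparg-cKO* with DMSO, and 486000 to 492000 and 487000 to 587000 with purmorphamine. The summed intensity of 6 endothelial genes was 8310 to 12600 and 15000 to 15900 with DMSO, and 21000 to 22400 and 29400 to 33500 with purmorphamine, with *Tek* past the threshold in control (adjusted p = 0.0447) and *Cdh5* and *Tek* in *Pparg-cKO*. The sum of 6 fibroblast genes was 262000 to 334000 and 280000 to 306000 with DMSO, and 363000 to 415000 and 394000 to 401000 with purmorphamine. The sum of 6 leukocyte genes was lower with purmorphamine, at 117000 to 152000 and 128000 to 142000 with DMSO against 70400 to 99600 and 85200 to 95900, with *Adgre1* past the threshold in *Pparg-cKO*. That of 4 platelet genes was 36400 to 87800 and 50900 to 52600 with DMSO, and 17800 to 27300 and 12500 to 16900 with purmorphamine, and in *Pparg-cKO* the platelet chemokine genes *Pf4* and *Ppbp* fell (log2 fold changes of -1.80 and -2.85, adjusted p = 0.0209 and 0.0472). Of the 3 glial and neuronal genes tested, 0 passed. Among urothelial genes *Epcam* fell (log2 fold changes of -0.96 and -0.81 in control and *Pparg-cKO*, adjusted p = 0.0469 and 0.0387) and *Upk1b*, a uroplakin of differentiated cells, rose by 0.89 and 1.72 (adjusted p = 0.0499 and 0.0135). The part of these shifts in the integrin and laminin values was not tested. In bulk RNA, fewer cells of a type and less RNA per cell cannot be told apart.

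Next, *Pparg-cKO* was compared with control under each treatment, across arrays. *Pparg-cKO* ureters had a higher signal for *Itgb6*, which passed with purmorphamine, and no member was called lower. With DMSO, 1 of 31 passed, against 3.69% of all genes, and with purmorphamine 1 of 31, against 2.86%. By the rule of the methods, *Itgb6* was higher with DMSO (1 gene, against 5.5% of all genes bright enough), and *Itgb6*, *Itga1* and *Itgb7* were higher with purmorphamine (3 genes, against 6.28%). Apart from the last, these shares are near or below those of all genes.

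*Itgb6*, the epithelial beta subunit that pairs with ITGAV to bind fibronectin and to activate latent TGF-beta, read 9.05 and 9.56 in control with DMSO, 10.36 and 10.13 in *Pparg-cKO* with DMSO, 9.30 and 9.33 in control with purmorphamine, and 10.72 and 10.22 in *Pparg-cKO* with purmorphamine. All 4 mutant pools were above all 4 control pools. The difference was 0.94 with DMSO (SE 0.22, adjusted p = 0.0774) and 1.15 with purmorphamine (SE 0.22, adjusted p = 0.0476), a 2.23-fold change. Leaving out any 1 array ended this call, with adjusted p from 0.0727 (without *Pparg-cKO* replicate 2) to 0.309 (without *Pparg-cKO* replicate 1), 0.167 without control replicate 1 and 0.209 without control replicate 2. With the replicate number as a block it was 0.0765. The second probe printed above gave 0.75 (adjusted p = 0.0682) and 1.00 (adjusted p = 0.0351). With purmorphamine against DMSO the gene had 0.01 in control and 0.23 in *Pparg-cKO*, neither of which passed. The second probe had 0.14 and 0.38 (adjusted p = 0.66 and 0.182, limma), which did not pass either, and was above 0 on all 4 arrays.

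Of the chains of the hemidesmosomal laminin, *Lama3*, the alpha chain, read 11.38 and 11.04 in control and 11.61 and 11.89 in *Pparg-cKO* with DMSO, and 10.97 and 11.14 against 11.33 and 11.39 with purmorphamine. Mutant pools were the higher under both treatments, by 0.54 and 0.30 (SE 0.15, adjusted p = 0.142 and 0.427), which did not pass. *Lamb3*, the beta chain, read 12.53 and 12.43 against 12.76 and 12.62 with DMSO, and 12.47 and 12.48 against 12.69 and 12.67 with purmorphamine, a difference of 0.21 under either treatment (SE 0.09, adjusted p = 0.368 and 0.344). With purmorphamine against DMSO neither *Lama3* nor *Lamb3* passed, and with the brighter *Lama3* probe their values ran from -0.40 to -0.01. The other *Lama3* probe gave 0.01 in control and -0.31 in *Pparg-cKO*. Its genotype differences were 0.54 with DMSO and 0.21 with purmorphamine, and it did not pass either.

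The subunits of the hemidesmosomal integrin did not pass in any comparison. *Itgb4*, the beta subunit with the long cytoplasmic tail that binds plectin, read 14.30 and 14.74 in control with DMSO, 14.46 and 14.47 in *Pparg-cKO* with DMSO, 14.07 and 13.56 in control with purmorphamine, and 14.25 and 13.56 in *Pparg-cKO* with purmorphamine. All treated pools were below all DMSO pools, with log2 fold changes of -0.71 in control and -0.56 in *Pparg-cKO* (SE 0.28, adjusted p = 0.27 and 0.344). The genotypes overlapped, with differences of -0.06 and 0.09. *Itga6*, its alpha partner, read 12.80 and 13.34 in control with DMSO, 13.50 and 13.35 in *Pparg-cKO* with DMSO, 13.74 and 13.49 in control with purmorphamine, and 13.74 and 13.63 in *Pparg-cKO* with purmorphamine. The male control pool with DMSO was the lowest. The genotype differences were 0.36 with DMSO (pairs at 0.70 and 0.01, adjusted p = 0.474) and 0.07 with purmorphamine (adjusted p = 0.921). A second *Itga6* probe lies at chr2:71694756-71694815, where the brighter is at chr2:71690633-71690692 (mm9). It gave genotype differences of the opposite sign, -0.06 with DMSO and -0.26 with purmorphamine. For purmorphamine against DMSO its signs were opposite as well, -0.42 and -0.61 against 0.54 and 0.26, so the direction of *Itga6* was not settled.

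**Figure D2:**
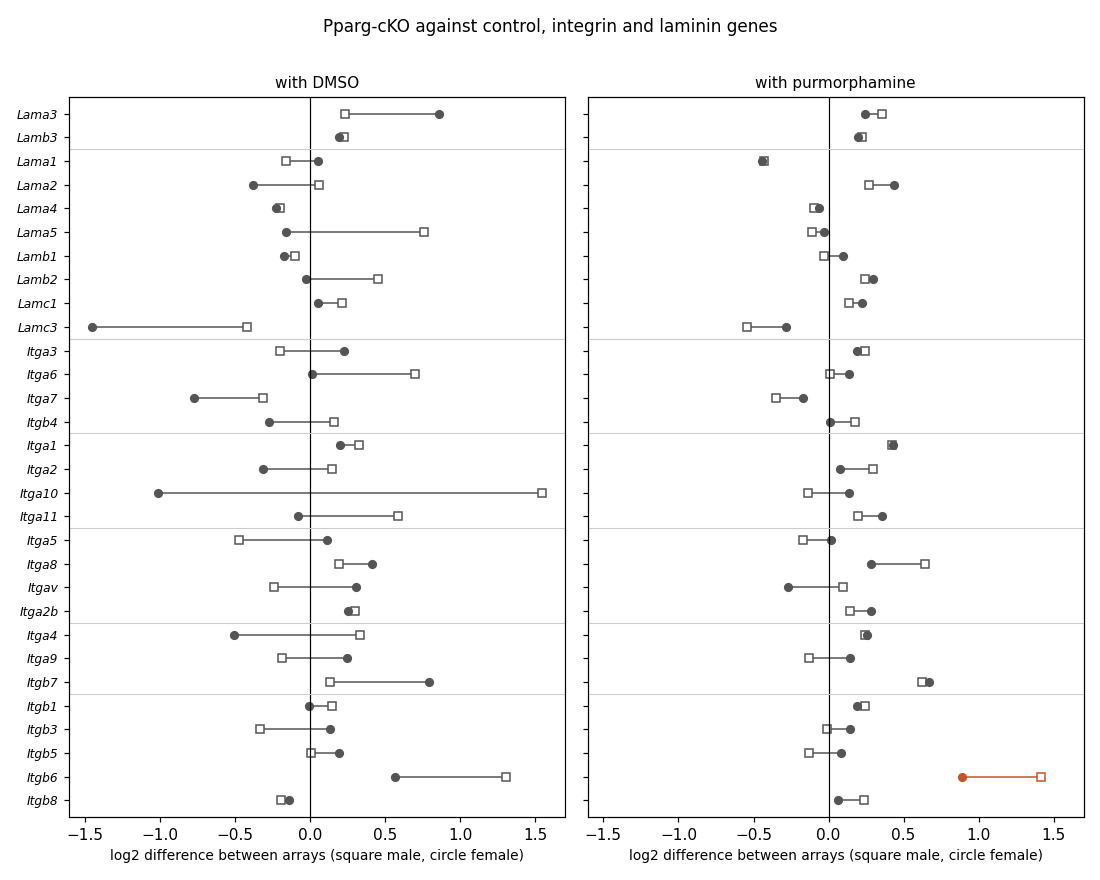
Log2 difference of *Pparg-cKO* from control for 30 genes, with DMSO (left) and with purmorphamine (right), with an open square for the male pair of pools and a filled circle for the female pair. Orange marks *Itgb6* on the right, and with DMSO the pairs of 15 genes had opposite signs, with purmorphamine those of 7.

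The laminin chain *Lamc3* had a value of -0.94 in *Pparg-cKO* with DMSO (SE 0.25, adjusted p = 0.117), the lowest of the members, with the male pair at -0.42 and the female pair at -1.46. *Itgb7*, which joins ITGA4 on lymphocytes, read 8.63 and 8.39 in control and 8.76 and 9.18 in *Pparg-cKO* with DMSO, and 7.95 and 7.96 against 8.57 and 8.62 with purmorphamine. The mutant pools were above the control pools in each treatment, by 0.46 and 0.64 (SE 0.15, adjusted p = 0.21 and 0.0934). *Itga1*, a collagen receptor subunit of smooth muscle and vessels, had 0.26 and 0.42 (adjusted p = 0.278 and 0.0888). The widely used partners *Itgb1* and *Itgb5* and the RGD receptor subunits *Itgav* and *Itga5* lay between -0.18 and 0.22 in both genotype comparisons. Of the members not yet given, *Itga7*, a laminin receptor subunit of muscle, had -0.54 and -0.26, *Itga2b*, the platelet fibrinogen receptor subunit, had 0.27 and 0.21, and *Itgb3* and *Itgb8*, beta partners of ITGAV, lay between -0.17 and 0.15. None passed. The median over the 31 genes was 0.07 with DMSO and 0.18 with purmorphamine, beside 0.00 and -0.00 over all genes.

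The endothelial marker *Kdr* was higher in *Pparg-cKO* with DMSO by 0.88 (adjusted p = 0.0373). Of the 6 endothelial genes, 5 were higher in both pairs of pools with DMSO (median log2 fold change 0.60). With purmorphamine 6 were higher in both pairs (median 0.56), and 0 passed. Of the 8 urothelial genes, 2 were higher and 4 lower in both pairs with DMSO (median -0.03). With purmorphamine only *Epcam* was higher, and the other 7 were lower in both pairs (median -0.37). *Epcam* was higher in *Pparg-cKO* by 0.61 with DMSO and 0.76 with purmorphamine (adjusted p = 0.05 and 0.0308). *Upk1b* was lower with DMSO (log2 fold change -1.31, adjusted p = 0.0111) and *Trp63* lower with purmorphamine (-1.10, adjusted p = 0.0128). The summed intensity of the 8 urothelial genes was 323000 to 350000 in control and 293000 to 340000 in *Pparg-cKO* with DMSO, and 391000 to 408000 against 298000 to 311000 with purmorphamine. The part of these endothelial and urothelial shifts in the values of *Itgb6* and the other members was not tested.

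**Figure D3:**
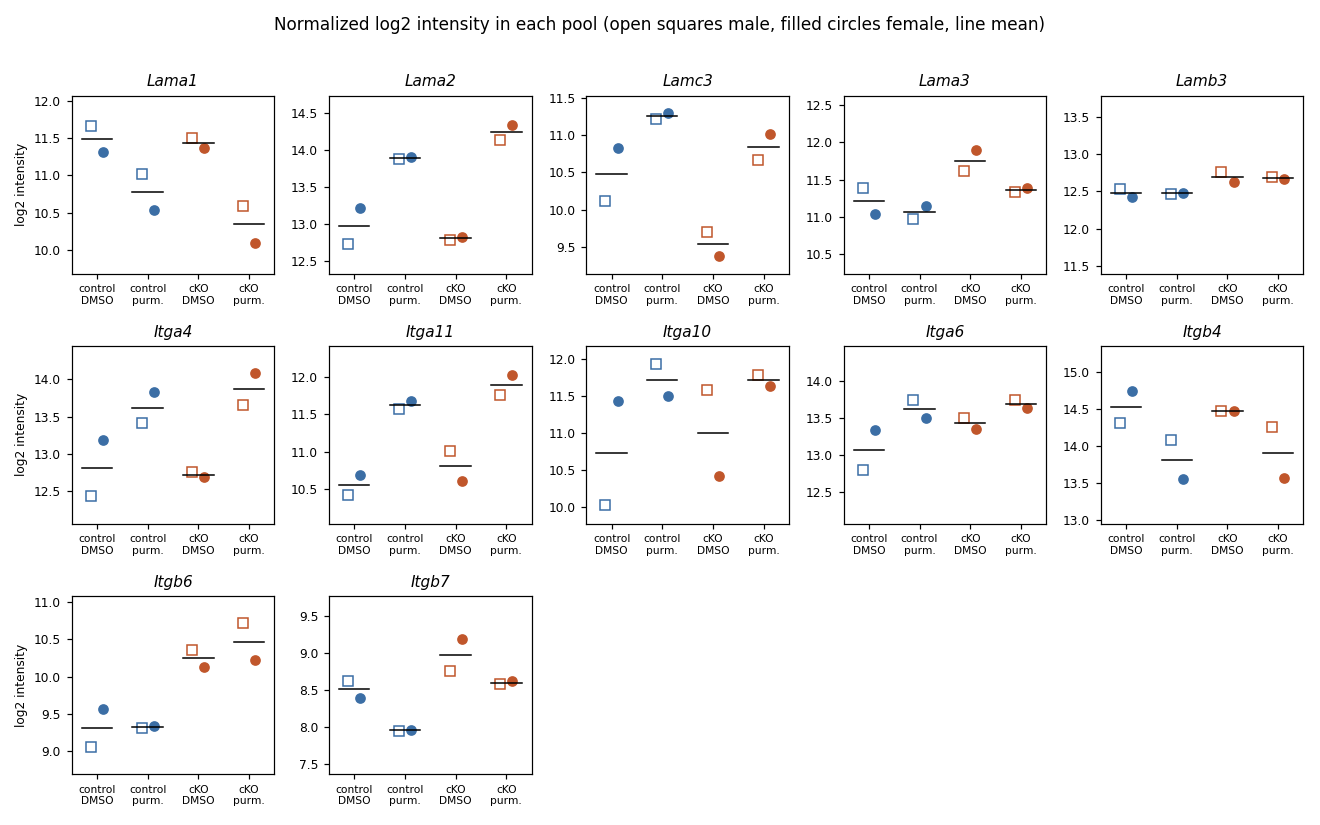
Normalized log2 intensity of 12 genes in each of the 8 pools, by group, with open squares for male pools, filled circles for female pools, a line for the mean of the pair, control in blue, *Pparg-cKO* (cKO) in orange, purm. for purmorphamine and a separate axis for each panel. *Lama2*, *Itga4* and *Itga11* were higher in every purmorphamine pool of a genotype, *Lama1* was lower, and *Itgb6* separated by genotype.

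The purmorphamine effects of the genotypes were then set against each other. For 0 of 31 genes did the effect differ between *Pparg-cKO* and control, against 0% of all genes, and 0 of 31 had an unadjusted p under 0.05, against 3.28% of all genes. The largest differences were 0.53 for *Lamc3*, 0.51 for *Lama2* and -0.38 for *Lama1*, all with an adjusted p of 1.00 by limma. The second *Lama2* probe had 0.48, with an unadjusted p of 0.0204 and an adjusted p of 1.00 by limma. That more genes passed in *Pparg-cKO* than in control is therefore not a difference between the genotypes shown by this test.

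Of the 10 genes with 2 probes, *Itgb6*, *Lama2* and *Itga10* gave closely similar values with either. *Itga6* gave opposite signs in both the genotype and the purmorphamine comparisons, and *Itga4* and *Itgb3* gave smaller purmorphamine values with the second probe. *Itgav* had -0.09 with the brighter and 0.52 with the other probe in *Pparg-cKO* with purmorphamine, neither of which passed (adjusted p = 0.892 and 0.0664). In the same genotype comparison *Itga1*, *Itgb1* and *Itgb3* had 0.42, 0.22 and 0.06 with the brighter probe. Their other probes gave 0.66, 0.36 and 0.32, and none of these values passed.

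**Figure D4:**
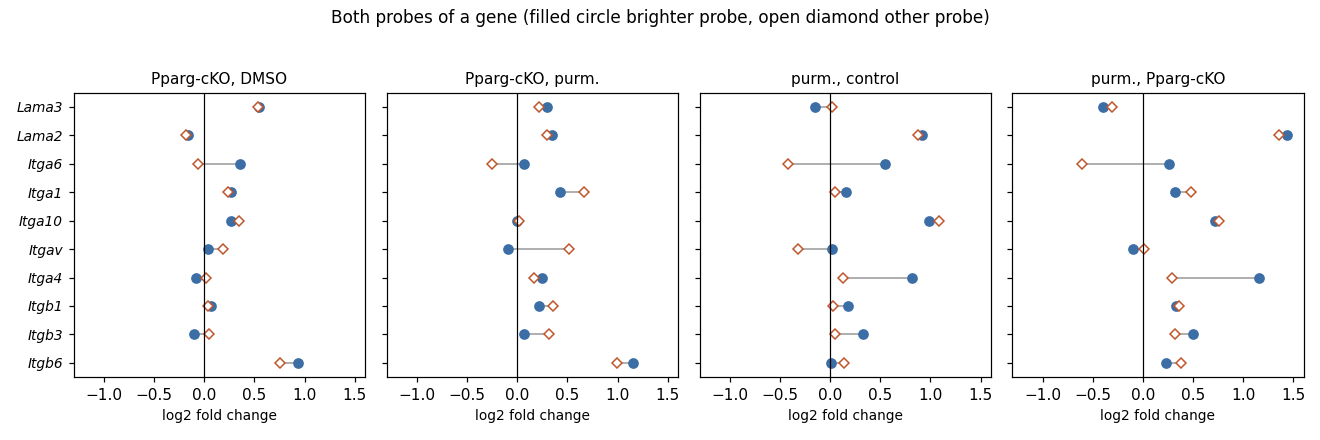
Log2 fold changes from the brighter probe (filled circle) and the other probe (open diamond) of the 10 genes with 2 probes, in the 4 comparisons. The symbols of *Lama2* and *Itgb6* lie close together, and those of *Itga6* lie on either side of 0 in every panel, at 0.54 and -0.42 for purmorphamine in control.

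Partners of these receptors were counted from a list of 56 genes. With DMSO 3 were higher and 1 lower in *Pparg-cKO* (3.69% of all genes in either direction), and with purmorphamine 1 was higher and 1 lower (2.86% of all genes). Purmorphamine lowered 1 in control (1.35% of all genes), and in *Pparg-cKO* it raised 3 and lowered 2 (4.69% of all genes). The ligand *Npnt*, encoding nephronectin, the partner of the integrin of ITGA8 and ITGB1, was the most changed. It read 7.32 and 7.10 in control with DMSO, 8.59 and 8.75 in *Pparg-cKO* with DMSO, 7.19 and 7.33 in control with purmorphamine, and 8.54 and 8.40 in *Pparg-cKO* with purmorphamine. All mutant pools lay above all control pools, by 1.46 with DMSO (SE 0.12, adjusted p = 0.00332) and 1.20 with purmorphamine (SE 0.12, adjusted p = 0.0102). Its receptor subunit *Itga8* did not pass in either genotype comparison, with 0.30 and 0.46.

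*Thbs1*, encoding thrombospondin, a ligand of integrins and of CD36, read 14.19 and 14.28 in control with DMSO, 13.34 and 13.37 in *Pparg-cKO* with DMSO, 14.23 and 14.06 in control with purmorphamine, and 14.25 and 14.28 in *Pparg-cKO* with purmorphamine. Only the mutant pools with DMSO were low. The log2 fold change of *Pparg-cKO* was -0.88 with DMSO (adjusted p = 0.00721), and purmorphamine raised the gene by 0.92 in *Pparg-cKO* (adjusted p = 0.0277). *Thbs2*, a related matrix protein, rose by 0.72 with purmorphamine in *Pparg-cKO* (adjusted p = 0.0421).

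Of the basement membrane partners, the collagen chains *Col4a3* and *Col4a4*, which lie together in the collagen of mature kidney and other specialised membranes, were higher in *Pparg-cKO* with DMSO by 1.16 and 0.97 (adjusted p = 0.0228 and 0.00825). *Col4a4* read 7.08 and 7.07 in control with DMSO, 7.92 and 8.18 in *Pparg-cKO* with DMSO, 7.23 and 7.31 in control with purmorphamine, and 7.06 and 6.98 in *Pparg-cKO* with purmorphamine. The mutant pools with DMSO stood above all others, and purmorphamine lowered the gene there (log2 fold change -1.03, adjusted p = 0.0257). *Col17a1*, the transmembrane collagen of the hemidesmosome, had 1.07 in *Pparg-cKO* with DMSO and -1.19 with purmorphamine in *Pparg-cKO*, but its pairs spread widely (SE 0.35 and 0.31, adjusted p = 0.202 and 0.11). *Cd151*, the tetraspanin bound to laminin-binding integrins, had values between -0.04 and 0.03 in all 4 comparisons.

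Of the 20 adaptors, *Tns4*, a tensin of epithelia, was lower in *Pparg-cKO* with purmorphamine (log2 fold change -1.04, adjusted p = 0.0351). *Lims2*, an adaptor of the integrin-linked kinase, rose by 1.12 with purmorphamine in *Pparg-cKO* (adjusted p = 0.0475). *Fermt3*, the kindlin of blood cells, fell with purmorphamine in both genotypes (log2 fold changes of -0.76 and -0.59, adjusted p = 0.0499 and 0.0472), beside the lower leukocyte and platelet sums given above.

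**Figure D5:**
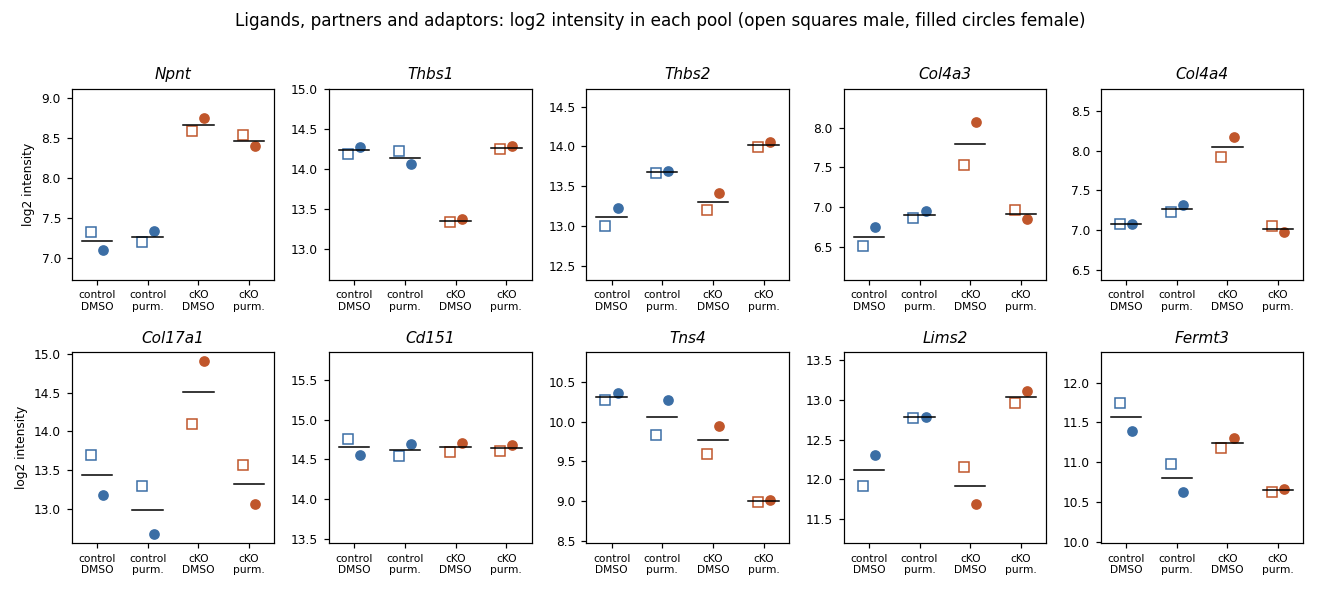
Normalized log2 intensity of 10 ligands, basement membrane partners and adaptors in each of the 8 pools, drawn as in the plot of integrin and laminin levels. *Npnt* separates by genotype, *Thbs1* is low and *Col4a4* high in the mutant pools with DMSO alone, and *Cd151* is level across all pools.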

How the data were processed

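Each sample was a two-colour Agilent oligonucleotide array of whole ureter RNA. The authors deposited scanner output, with intensity values (mean, background and processed signals) and a log10 ratio per spot, and a value table that holds a signed fold change per probe, used here as a score, in an alternative only. The median of each of its columns was 1, it correlated with the log ratios turned to purmorphamine over DMSO at 0.969 to 0.976, and its centring is unknown. The log10 ratio only checked the direction. The submitters' processing notes name Agilent Feature Extraction 10.7.3.1 and the file headers name 12.2.0.7. Probe coordinates are mm9 per the file headers. The genes and lists were chosen with earlier results of these data known.

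Mean intensities were background-corrected (normexp, offset 50) and loess-normalized within arrays. The 4 spots of a probe were averaged without flagged spots, on the log2 scale. A probe was tested if more than 50% of its spots exceeded background in each pool of at least 1 group (27064 of 39429). Genotypes were compared by the limma separate-channel fit after Aquantile normalization (intraspot correlation 0.0598), treatments by limma on within-array log ratios, turned for dye, both over all 4 arrays (limma 3.58.1, R 4.3.3). The brightest tested probe stands for a gene. Members were described in every pool where called, in the hemidesmosomal group, or among the 3 largest changes of a comparison. Of each other list at most 4 called genes per comparison changed alike in both pairs are named, with *Col17a1*, *Cd151* and *Npnt*. The fits were tested on simulated data. Precision is limited by 2 pools a group. Replicate numbers mark sex and dye orientation. Controls came from the litters of the mutants, and whether pools of one number shared litters is not given in the sources used here. Alternatives were another background offset, scaling, filter, probe rule, sample set, block, the value table, the rule of the methods and leaving out each array. Protein sequences were not used here. Results of 1 gene among the 31 and of 1 marker gene are not reported here beyond their part in the counts.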

Additional observations from a re-analysis of the deposited data

Results flagged for a closer look

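Some genes had both pairs of pools on one side of 0 in one setting and both on the other side in the other, and the difference of the effects was tested with limma. For *Col4a4* this held for the effect of *Pparg-cKO* between the treatments and for that of purmorphamine between the genotypes, with a difference of -1.22 (adjusted p = 0.977, limma). The purmorphamine effect on *Col4a3* was opposed between the genotypes, with a difference of -1.15 (adjusted p = 1.00, limma). The *Pparg-cKO* effect on *Thbs1* was opposed between the treatments, with a difference of 1.01 (adjusted p = 0.977, limma). Among the integrin and laminin genes this was seen for *Itgb8*, where the *Pparg-cKO* effect was opposed between the treatments with a difference of 0.31 (adjusted p = 1.00, limma). *Itgb8* was dim, at 6.73 to 7.28 over the pools, where the lowest level well above background ran from 6.28 to 6.50. None of these differences passed the threshold.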

How the results depend on the processing

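All 7 called changes of members kept their sign under every alternative run, but most lay close to the threshold. Some alternatives were not separate. For purmorphamine in *Pparg-cKO*, leaving out either control array repeated the fit with only the groups compared. The counts given next for that comparison therefore hold the same outcome more than once. *Lama2* in *Pparg-cKO* passed in 9 of 11 alternatives (log2 fold change 1.35 to 1.51), *Lama1* in 7 of 11, *Itga4* in 6, *Lamc3* in 5 and *Itga11* in 3, while *Itgb6* passed in 3 of 12.

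The number of members called with DMSO between genotypes, 1 as reported, became 0 with processed signals, with an offset of 10, without and with quantile normalization between arrays, without the filter on dim probes, with only the 4 pools compared and with the replicate block. The number with purmorphamine, 1 as reported, became 0 with processed signals, without normalization between arrays, without the filter, with only the 4 pools and with the replicate block, and 3 by the rule of the methods. For purmorphamine in control, 0 as reported became 1 with the mean of all probes (*Lama2*) and with only the 2 arrays of the genotype (*Itga11*), and 4 by the rule of the methods. For purmorphamine in *Pparg-cKO*, 5 as reported became 1 with processed signals and without the filter (*Lama2*), 2 with the replicate block (*Lama1* and *Lama2*) and 0 with the value table, where 0 of all 27064 probes passed. Leaving out an array gave 0 throughout for both genotype comparisons, 0 to 1 for purmorphamine in control and 0 to 5 in *Pparg-cKO*, where it was 0 without the female *Pparg-cKO* array and 5 without any other. With only the 2 arrays of *Pparg-cKO*, the same fit as without either control array, *Itga11* was lost (adjusted p = 0.0557, limma). *Itga8* passed in its place, so those 5 genes were not the 5 reported. The difference of effects called 0 members in every alternative. The causes were not tested. Same-numbered pools correlated in their deviations from the group means at -0.17 with DMSO, 0.48 with purmorphamine and 0.16 for the purmorphamine effect over 27064 probes. With 2 pools a group these values do not settle whether the replicate number pairs the pools, so the block is given as an alternative. Pairs of pools of 1 sex are the only replication, and each array holds 1 genotype, so array and genotype differ together within a sex.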
